A study of Drosophila melanogaster with 10 samples.

Results

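The proteasome genes were taken as the probe sets whose only gene symbol in the deposited table begins with Pros, Rpn or Rpt, with Prosap left out. This rule found 39 genes, each with 1 probe set, among 12401 genes that a probe set names singly. RNA came from DL1 cells, a Drosophila melanogaster culture line in which genes can be silenced by adding double-stranded RNA (dsRNA) to the medium. In 5 replicates the cells were bathed in dsRNA to nbr, the gene of the Nibbler exoribonuclease that trims microRNA ends, and in 5 control replicates in dsRNA to renilla, a luciferase sequence foreign to the fly. All cells were kept at 25 °C and collected after 5 days, and each replicate was hybridised to 1 array. The comparison asks which genes are affected by the loss of nbr. The labels name no other allele, agent or driver, and the design text calls the replicates independent without saying what separated them.

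The proteasome is the protease that degrades proteins tagged with ubiquitin. Its core particle is a barrel of alpha and beta rings, in which the beta subunits cut the substrate inside the chamber and the alpha subunits control entry. A regulatory particle caps the barrel. Its base holds a ring of ATPases, the Rpt proteins, that unfold and feed in the substrate, and its lid and other Rpn proteins bind ubiquitin chains and remove them. Drosophila also carries duplicated subunit genes, many of them known for expression in the testis, whose names end in T or R. Proteasome genes are used by all cells, and their transcripts are known in fly and mammalian cells to rise together when the protease is blocked.

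By role, 12 general genes belong to the core particle (6 to the alpha ring and 6 to the beta ring), 15 general genes to the regulatory particle, and 12 genes are paralogs. RefSeq accessions matched all 39 genes and gave current names to 11 of them, so that Pros25 is called Prosalpha2, Pros29 Prosalpha3, Pros28.1 Prosalpha4, Pros35 Prosalpha6, Pros26 Prosbeta6, Pros26.4 Rpt2, Pros45 Rpt6 and Pros54 Rpn10. Of the paralogs, Pros28.1A is called Prosalpha4T1, Pros28.1B Prosalpha4T2 and Prosbeta5R Prosbeta5R1. The deposited annotation lists a proteasome term under cellular component for all 39. The same column carries that term for 17 further probe sets with 1 symbol.

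Levels are log2 GCRMA values per probe set. A value describes 1 probe set on the 10 arrays. Levels of different probe sets are not compared as amounts of transcript, since probes differ in how strongly they bind. A log2 level of 4 was the minimum for testing, and the median probe set of the whole array had a mean of 2.37. The targeted gene nbr averaged 8.19 ± 0.491 in nbr RNAi and 11.35 ± 0.130 in control RNAi (SD, n = 5 each), with a log2 fold change of -3.16 (limma, Benjamini-Hochberg adjusted p = 1.46e-04). Of 14 markers of plasmatocytes, a blood cell type of the fly, 13 were above the minimum, while Col4a1 was at 2.18. Over these markers the log2 of the summed level was 16.2 to 16.4 in nbr RNAi and 16.1 to 16.3 in control RNAi. Bright probe sets such as that of He, with a mean of 14.38, weigh most in this sum. It says little about dimmer ones such as that of Pxn, with a mean of 5.64. None of the 13 passed the test, Glt having a log2 fold change of 0.97 and SPARC 0.19. Of the markers of other cell types, 4 of 5 for neurons, all 5 for muscle and all 5 for fat body were under the minimum, and elav, the neuron marker above it, had a log2 fold change of -0.16 that did not pass. Pearson correlations between arrays over the tested probe sets were 0.977 to 0.998, and the 10 arrays limit the precision of each value.

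No proteasome gene passed the test. Of the 39 genes, 29 were above the minimum and were tested, 27 general genes and the paralogs Rpt3R and Rpt6R. In limma with Benjamini-Hochberg adjustment over all 7729 tested probe sets, 0 of the 29 had an adjusted p under 0.05, against 0.0259% of all tested probe sets, and their adjusted p values were 0.868 to 1. At an unadjusted p under 0.05 the count was also 0 of 29, against 5.87% of all tested probe sets. In none of the 29 did the 5 nbr RNAi arrays lie apart from the 5 control RNAi arrays, against 0.97% of all tested probe sets, of which 0.75% were wholly higher and 0.22% wholly lower in nbr RNAi. In such bulk RNA fewer expressing cells and less RNA per cell cannot be told apart, and the normalization makes the arrays alike, so a shift of all RNA would not be seen.

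The data bounded any difference in the level of these probe sets narrowly. Whether the signal at such levels follows the amount of transcript in proportion was not tested. The 29 log2 fold changes, nbr RNAi over control RNAi, were -0.089 to 0.076, with 14 above 0, 14 below 0 and 1 at 0. Their median was 0, beside 0.0056 over all tested probe sets. The median size of the log2 fold change was 0.022 in the 29 genes and 0.056 over all tested probe sets, and the median standard error was 0.049 and 0.071. Bright probe sets came nearer to the 29 genes, since 3875 probe sets with a mean of at least 11, a minimum that all 29 genes exceed, had a median size of 0.043 and a median standard error of 0.057. The 95% interval of every one of the 29 genes lay inside a change of 1.2-fold in either direction, as it did for 62.6% of all tested probe sets. It lay inside 1.1-fold for 15 of 29 genes, against 14.9% of all tested probe sets. Among the 3875 bright probe sets the share inside 1.2-fold was 83.4%. Their share inside 1.1-fold is not given, so the 14.9% is not matched to the 29 genes for level. That minimum of 11 was chosen after the levels were seen. The interval that reached farthest from 0 was that of Prosalpha3, at -0.210, a 1.16-fold lower level.

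**Figure D1:**
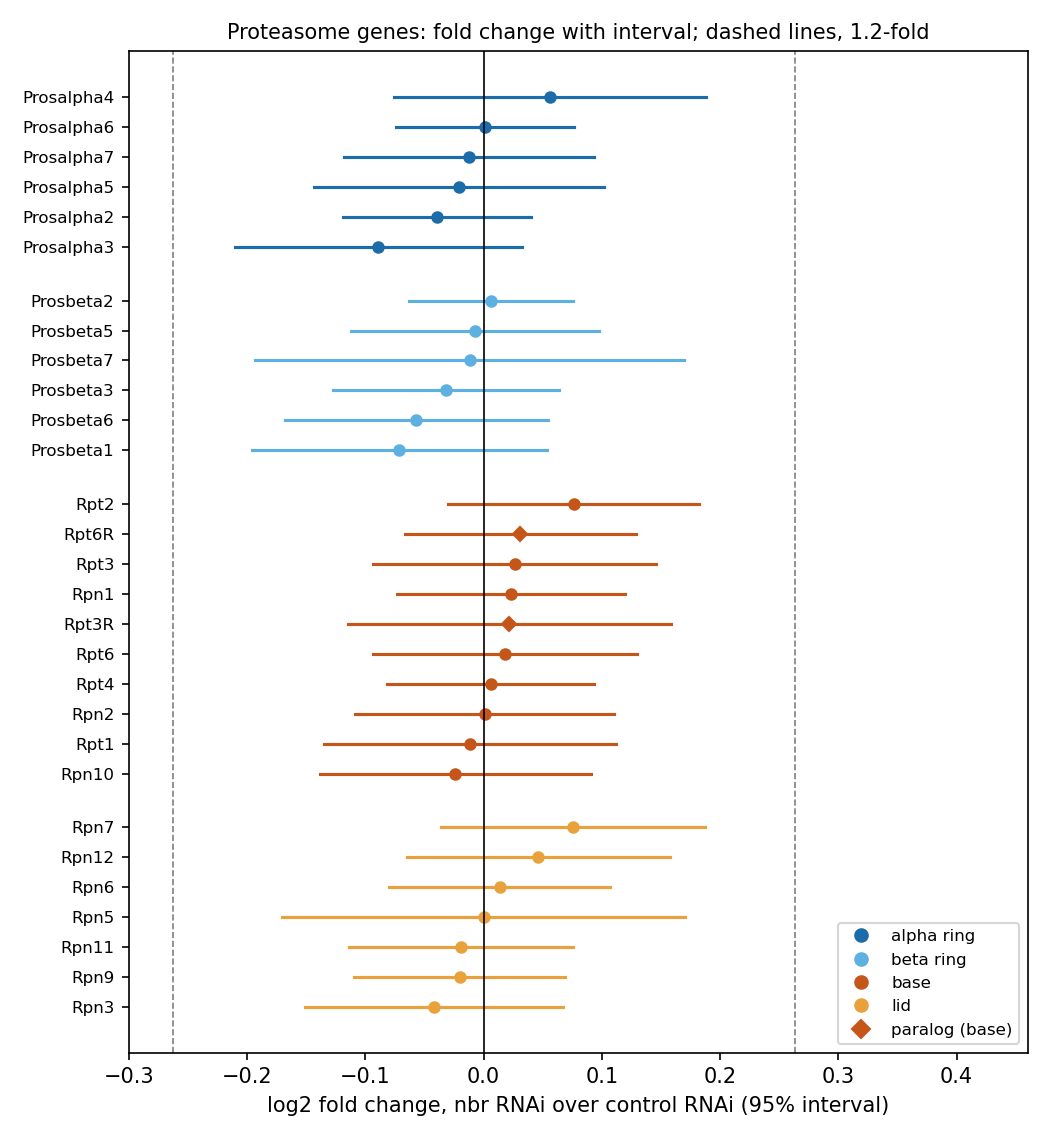
Log2 fold change of each of the 29 tested proteasome genes, nbr RNAi over control RNAi (horizontal axis), with points for the estimate and bars for the 95% interval from limma, 5 arrays a group. Colours mark the ring or subcomplex, diamonds the paralogs Rpt6R and Rpt3R, and dashed lines a change of 1.2-fold. Every bar crosses 0 and stays between the dashed lines.

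In the core particle, 3 of 12 genes had a log2 fold change above 0 and 9 below 0, with a median of -0.017. In the regulatory particle 11 of 17 were above 0, 5 below 0 and 1 at 0, with a median of 0.014, and without the paralogs the 15 general genes had a median of 0.0060. Over all tested probe sets 52.9% were above 0 and 47.1% below 0, with a median of 0.0056. As a level per array, the median core gene minus the median regulatory gene, each relative to its own mean over the 10 arrays, was -0.015 ± 0.014 in nbr RNAi and 0.020 ± 0.028 in control RNAi (SD, n = 5 each). These differences were -0.031 to 0.0014 on nbr RNAi arrays and -0.0062 to 0.053 on control RNAi arrays, so the groups overlapped. No test was made over the gene groups, and none of the genes behind these medians passed singly. With nbr RNAi array 4 left out the core median was 0.0011. The regulatory median was -0.0068 when nbr RNAi array 5 was left out, -0.0055 when control RNAi array 5 was, and -0.0035 with array weights. Without nbr RNAi array 4, 5 of the 12 core genes were below 0. The core median minus the regulatory median was -0.030 with all arrays and -0.046 to -0.018 over the alternative fits.

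The alpha ring had 2 genes above 0 and 4 below, with log2 fold changes from -0.089 to 0.056 and a median of -0.017. Prosalpha3 (FlyBase FBgn0261394), which in yeast has a tail that closes the gate of the barrel, had the smallest unadjusted p of the 29 genes, 0.133. Prosalpha3 read 13.05, 12.93, 13.01, 12.94 and 13.14 on nbr RNAi arrays 1 to 5, against 13.08, 13.03, 13.21, 13.16 and 13.03 on control RNAi arrays 1 to 5. The groups overlapped, with 3 of 5 nbr RNAi arrays below every control RNAi array. Its log2 fold change was -0.089 (standard error 0.055, 95% interval -0.210 to 0.032, limma, Benjamini-Hochberg adjusted p = 0.868). Over the 10 fits that each leave out 1 array it ran from -0.120 to -0.062. The value nearest 0 came without control RNAi array 3 (unadjusted p = 0.289 in limma), and without nbr RNAi array 2 it was -0.068 (unadjusted p = 0.266 in limma). Without nbr RNAi array 5 it was -0.120, with an unadjusted p of 0.0371 and an adjusted p of 0.481 in limma. Among the fits tried, only this one had any of the 29 genes under 0.05 before adjustment.

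Prosalpha2 (FBgn0086134), another subunit of the outer ring, read 14.12, 14.09, 14.09, 14.10 and 14.11 in nbr RNAi, against 14.10, 14.11, 14.20, 14.19 and 14.10 in control RNAi. Control RNAi arrays 3 and 4 stood above all other arrays, and the other 8 lay within the same narrow range. The fitted log2 fold change was -0.039 with a 95% interval of -0.119 to 0.040 (limma, adjusted p = 0.899).

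Prosalpha4 (FBgn0004066) ran the other way, at 12.20, 12.16, 12.35, 12.23 and 12.44 in nbr RNAi, against 12.18, 12.20, 12.24, 12.17 and 12.31 in control RNAi. Both nbr RNAi arrays 3 and 5 were above every control RNAi array, and nbr RNAi array 2 was below all of them. The log2 fold change was 0.056 with an interval of -0.075 to 0.188 (limma, adjusted p = 0.911), and it was 0.015 without nbr RNAi array 5. The other alpha genes were at -0.021 for Prosalpha5, 0.0010 for Prosalpha6 and -0.012 for Prosalpha7. Prosalpha6 had group means of 14.05 in nbr RNAi and 14.05 in control RNAi, with SDs of 0.028 and 0.031.

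In the beta ring, 1 gene was above 0 and 5 were below, with a median of -0.022. The ring holds the catalytic subunits, Prosbeta1 with caspase-like, Prosbeta2 with trypsin-like and Prosbeta5 with chymotrypsin-like activity. Prosbeta1 (FBgn0010590) read 13.34, 13.21, 13.25, 13.26 and 13.43 in nbr RNAi, against 13.33, 13.32, 13.49, 13.43 and 13.28 in control RNAi. On nbr RNAi arrays 2, 3 and 4 it was below every control RNAi array, and on arrays 1 and 5 it was among them. Its log2 fold change was -0.071 with an interval of -0.196 to 0.053 (limma, adjusted p = 0.885).

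Prosbeta2 (FBgn0023174) read 13.80, 13.76, 13.80, 13.75 and 13.79 in nbr RNAi, against 13.77, 13.78, 13.78, 13.78 and 13.75 in control RNAi. The lowest value was on nbr RNAi array 4, level with control RNAi array 5 to the second decimal, and 3 nbr RNAi arrays were above every control RNAi array. Its standard error of 0.031 was the smallest of the 29, and its log2 fold change of 0.0064 had an interval of -0.063 to 0.076 (limma, adjusted p = 0.989). Prosbeta5 (FBgn0029134) read 13.41, 13.38, 13.33, 13.32 and 13.52 in nbr RNAi, against 13.36, 13.41, 13.45, 13.43 and 13.34 in control RNAi. The highest value of all was on nbr RNAi array 5 and the lowest on nbr RNAi array 4, so the nbr RNAi arrays enclosed the control RNAi arrays. This gave a log2 fold change of -0.0071 with an interval of -0.112 to 0.098 (limma, adjusted p = 0.990).

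The other genes of the beta ring encode subunits without a protease site. Prosbeta6 (FBgn0002284) read 13.42, 13.34, 13.37, 13.30 and 13.34 in nbr RNAi, against 13.41, 13.42, 13.43, 13.52 and 13.27 in control RNAi. The log2 fold change of -0.057 had an interval of -0.168 to 0.054 (limma, adjusted p = 0.898), and the control RNAi arrays held both the highest and the lowest value. Prosbeta3 (FBgn0026380) read 14.40, 14.40, 14.39, 14.30 and 14.25 in nbr RNAi, against 14.36, 14.39, 14.37, 14.44 and 14.35 in control RNAi. Prosbeta3 was lowest on nbr RNAi array 5, where most genes of the set were at their highest, and its log2 fold change was -0.032 (interval -0.128 to 0.064, limma adjusted p = 0.940). Prosbeta7 had the highest SD pooled over both treatments of the 29 genes, with SDs of 0.103 in nbr RNAi and 0.163 in control RNAi, and a log2 fold change of -0.012 with an interval of -0.193 to 0.170.

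In the base, 8 of 10 genes were above 0 and 2 below, with a median of 0.020. Over all tested probe sets 52.9% were above 0. These 10 genes include the paralogs Rpt3R and Rpt6R, at 0.022 and 0.031. Of the 7 ATPase genes in the base, with the paralogs counted, 6 were above 0, and Rpt1 was at -0.012. The ATPase gene Rpt5, which lay outside the symbol rule, was at -0.018. Rpt2 (FBgn0015282), an ATPase whose tail in yeast helps to open the gate of the core, read 12.74, 12.85, 12.69, 12.76 and 12.86 in nbr RNAi, against 12.68, 12.77, 12.74, 12.69 and 12.63 in control RNAi. On nbr RNAi arrays 2 and 5 it was above every control RNAi array, and the other 3 lay among them. Its log2 fold change was 0.076 (standard error 0.048, interval -0.030 to 0.182, limma, adjusted p = 0.876).

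Rpn1 (FBgn0028695), a scaffold that docks proteins carrying ubiquitin chains, read 12.48, 12.56, 12.47, 12.41 and 12.43 in nbr RNAi, against 12.48, 12.47, 12.51, 12.38 and 12.39 in control RNAi. The values intermingled apart from nbr RNAi array 2, the highest, and the log2 fold change was 0.023 (interval -0.073 to 0.119, limma adjusted p = 0.960). Without nbr RNAi array 2 it was 0.00067. The ubiquitin receptor gene Rpn10 was at -0.024 and the scaffold gene Rpn2 at 0.00082. The ATPase genes Rpt3, Rpt4 and Rpt6 were at 0.026, 0.0060 and 0.018.

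In the lid, 3 of 7 genes were above 0, 3 below and 1 at 0, with a median of 0. Rpn7 (FBgn0028688), a scaffold subunit, read 13.24, 13.18, 13.25, 13.14 and 13.39 in nbr RNAi, against 13.10, 13.19, 13.20, 13.19 and 13.13 in control RNAi. On 3 of 5 nbr RNAi arrays Rpn7 was above every control RNAi array, and the other 2 were within the control range. Its log2 fold change was 0.076 (standard error 0.050, interval -0.036 to 0.188, limma, adjusted p = 0.876), and it was 0.039 without nbr RNAi array 5.

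Rpn12 (FBgn0028693) read 12.40, 12.31, 12.36, 12.31 and 12.54 in nbr RNAi, against 12.32, 12.34, 12.39, 12.35 and 12.29 in control RNAi. For Rpn12 the log2 fold change was 0.046 (interval -0.065 to 0.157, limma adjusted p = 0.914), and 0.0074 without nbr RNAi array 5, the array with the highest value. Rpn3 (FBgn0261396) read 13.66, 13.57, 13.61, 13.56 and 13.68 in nbr RNAi, against 13.61, 13.60, 13.77, 13.73 and 13.59 in control RNAi. Control RNAi arrays 3 and 4 were its highest, and the log2 fold change was -0.042 (interval -0.151 to 0.067, limma adjusted p = 0.922). Rpn11, the deubiquitinase of the lid, was at -0.019, Rpn9 at -0.020 and Rpn6 at 0.014.

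Rpn5 had a log2 fold change of 0 because 1 array offset the others. It read 13.81, 13.87, 13.88, 13.78 and 13.46 in nbr RNAi, against 13.81, 13.73, 13.72, 13.78 and 13.75 in control RNAi. On nbr RNAi array 5 it was the lowest of all 10, and without that array the log2 fold change was 0.076 (limma, adjusted p = 0.501).

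On some arrays most of the genes were high or low together, in both treatments. Of the 29 genes, 25 were above the mean of arrays 1 to 4 on nbr RNAi array 5, the median difference being 0.107, and 21 had their highest nbr RNAi value there. Over all tested probe sets 61.3% were above that mean, by a median of 0.066. On control RNAi array 3, 27 of 29 were above the mean of the other control RNAi arrays, by a median of 0.064, against 56.9% and 0.019 over all tested probe sets. On control RNAi array 5 only 2 of 29 were above it, and the median difference was -0.086, against 39.7% and -0.036 over all tested probe sets. On nbr RNAi array 4 the count was also 2 of 29, with a median of -0.062, against 44.0% and -0.017.

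The shift on these arrays was shared by both particles. Relative to each gene's mean over the 10 arrays, the core and regulatory medians were 0.087 and 0.089 on nbr RNAi array 5 and 0.050 and 0.052 on control RNAi array 3. They were -0.068 and -0.037 on nbr RNAi array 4. Control RNAi arrays 4 and 5 were the arrays where the particles stood farthest apart, at 0.060 and 0.0070 on array 4 and at -0.026 and -0.073 on array 5. What sets these arrays apart was not tested, and the labels give no extraction or scan batch. The median SD within a group was 0.070 for the 29 genes, beside 0.116 over all tested probe sets. Those probe sets were not matched to the 29 genes for level.

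**Figure D2:**
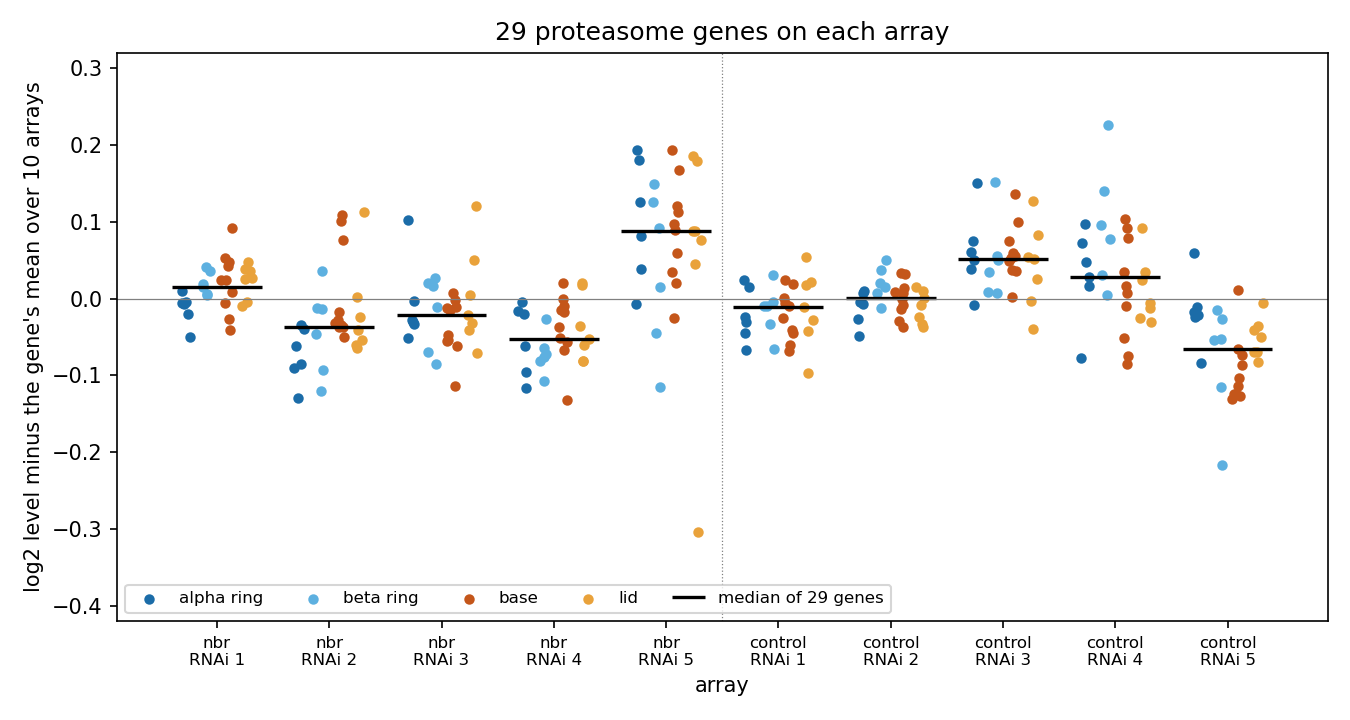
Log2 level of each of the 29 tested proteasome genes minus that gene's own mean over the 10 arrays (vertical axis), for the 5 nbr RNAi arrays and then the 5 control RNAi arrays. Points are genes coloured by ring or subcomplex and black bars the median of the 29 genes. The medians are highest on nbr RNAi array 5, at 0.089, and control RNAi array 3, at 0.051, and lowest on control RNAi array 5, at -0.065, and the point near -0.3 is Rpn5.

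The paralogs fell into 2 kinds by level. Of 12, 10 were under the minimum of 4 on the log2 scale and were not tested, while Rpt3R and Rpt6R were far above it. The member nearest below the minimum was Prosbeta2R2, with a mean of 3.13, and the nearest above was Rpt3R, with a mean of 11.50, so that no gene of the set lay close to it. Leaving out Prosbeta2R2, the other 9 read 1.87 to 2.28 on nbr RNAi arrays and 1.85 to 2.29 on control RNAi arrays, near the median probe set of the whole array. At such levels background makes up the reading, and neither presence nor absence of a transcript nor a limit on its change can be read from it.

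Among the 10 dim paralogs, 9 had a higher mean in nbr RNAi and 1, Rpn12R, a lower one, with differences from -0.0034 to 0.023 and a median of 0.0099. Of all 11040 probe sets under the minimum, 80.9% had a higher mean in nbr RNAi, by a median of 0.0080, so the count among the paralogs was near that of dim probe sets in general. The difference of 0.023 was that of Prosalpha4T2, an alpha ring paralog, which read 2.13, 2.14, 2.17, 2.16 and 2.15 in nbr RNAi, against 2.13, 2.13, 2.13, 2.10 and 2.15 in control RNAi. In a limma fit with no minimum its unadjusted p was 0.0615 and its Benjamini-Hochberg adjusted p 0.829, the lowest unadjusted p among the 10. In that fit the adjusted p of all 10 was 0.829 or more.

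The remaining alpha ring paralogs averaged 2.12 ± 0.0080 in nbr RNAi and 2.11 ± 0.021 in control RNAi for Prosalpha3T (SD, n = 5 each). Prosalpha4T1 averaged 2.19 ± 0.010 in nbr RNAi and 2.18 ± 0.012 in control RNAi, and Prosalpha6T 2.01 ± 0.0080 in nbr RNAi and 1.99 ± 0.017 in control RNAi. Of the beta ring paralogs, Prosbeta2R1 averaged 1.87 in both treatments, Prosbeta4R1 2.17 in nbr RNAi and 2.16 in control RNAi, and Prosbeta5R1 2.10 in both. Rpt4R averaged 1.92 in both, and Rpn12R 2.27 in both. Prosbeta2R2 read 3.09, 3.12, 3.01, 3.10 and 3.35 in nbr RNAi, against 3.11, 3.10, 3.23, 3.08 and 3.11 in control RNAi. Its highest values were on nbr RNAi array 5 and control RNAi array 3, the arrays on which most general genes were also high.

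Markers of the testis and germline were measured beside these paralogs. Of 20 markers, 18 were under the minimum and 17 had a mean under 3, among them betaTub85D, the testis beta-tubulin, at 2.07, vas, a germline helicase gene, at 2.37 and Mst87F, a sperm tail gene, at 2.18. The exceptions were twe, a meiotic phosphatase gene, and mia, a gene of the testis transcription programme, with means of 9.33 and 8.72. Neither passed, with log2 fold changes of 0.26 (limma, Benjamini-Hochberg adjusted p = 0.854) and 0.14 (0.849). The log2 of the summed level of the 20 markers was 10.2 to 10.3 in nbr RNAi and 9.95 to 10.3 in control RNAi. Most of this sum came from twe and mia, so it says little about the other 18.

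**Figure D3:**
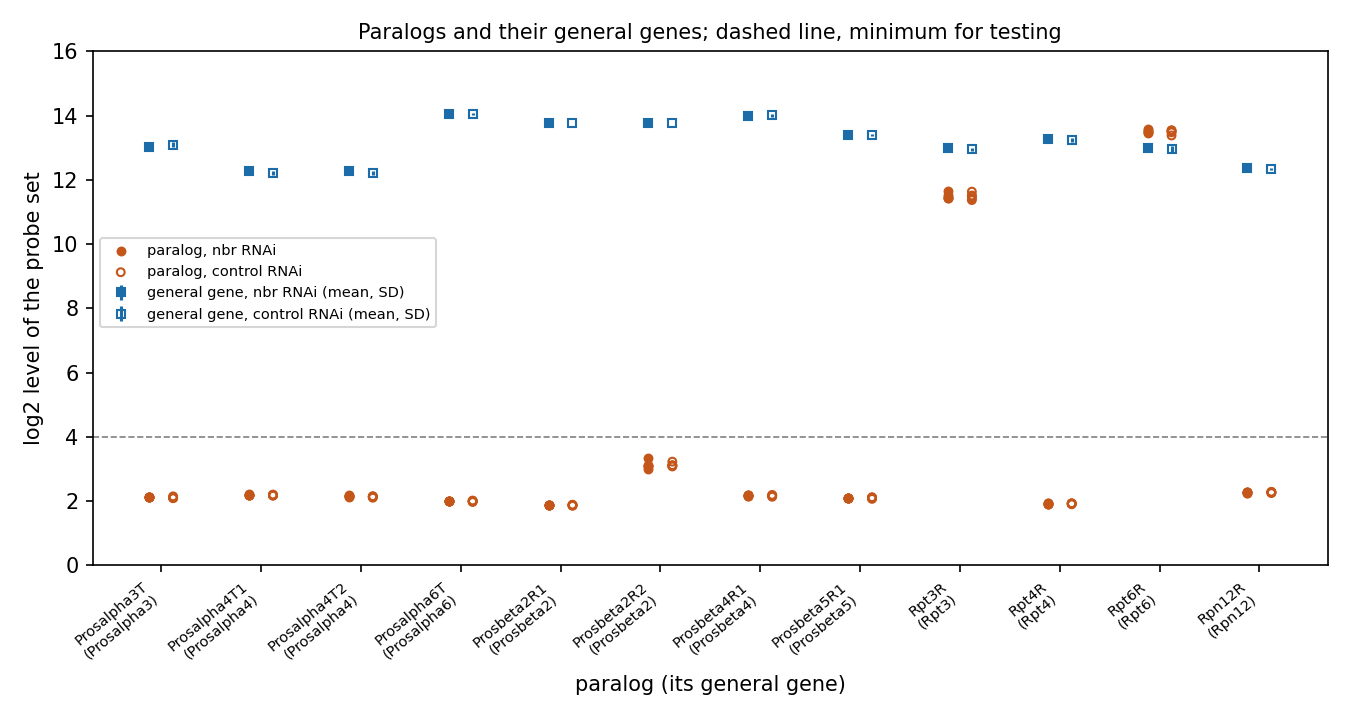
Log2 level of the probe set (vertical axis) of each of the 12 paralogs, with 1 point per array, and of its general gene, named in brackets, as mean with SD, for nbr RNAi (filled) and control RNAi (open), 5 arrays each. Most SDs are smaller than the symbols. The dashed line is the minimum for testing, 4, with 10 paralogs under it and Rpt3R and Rpt6R above it. Levels of different probe sets cannot be compared in amount.

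Rpt6R and Rpt3R, named as relatives of the ATPase genes Rpt6 and Rpt3, were the paralogs with a measurable level. Rpt6R (FBgn0039788) read 13.60, 13.47, 13.50, 13.51 and 13.54 in nbr RNAi, against 13.48, 13.51, 13.54, 13.54 and 13.38 in control RNAi. Only nbr RNAi array 1 was above all control RNAi arrays, and control RNAi array 5 was the lowest. The log2 fold change was 0.031 with an interval of -0.067 to 0.129 (limma, adjusted p = 0.941), beside 0.018 for Rpt6. It was 0.0040 without control RNAi array 5 and 0.012 without nbr RNAi array 1.

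Rpt3R (FBgn0037742) read 11.52, 11.47, 11.45, 11.44 and 11.67 in nbr RNAi, against 11.43, 11.49, 11.64, 11.52 and 11.37 in control RNAi. The groups covered nearly the same range, with the highest values on nbr RNAi array 5 and control RNAi array 3. The log2 fold change was 0.022 with an interval of -0.115 to 0.158 (limma, adjusted p = 0.971), beside 0.026 for Rpt3. Over the 10 fits that each leave out 1 array it ran from -0.017 to 0.059, so its sign was not stable.

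On some arrays each of the pair was high or low together with its general gene. Relative to its own mean, Rpt6R was at 0.092 and Rpt6 at 0.054 on nbr RNAi array 1, and they were at -0.124 and -0.130 on control RNAi array 5. Rpt3R was at 0.168 and Rpt3 at 0.193 on nbr RNAi array 5, and they were at 0.136 and 0.056 on control RNAi array 3. Most of the other proteasome genes were also high or low on these arrays. Whether the probes of Rpt6R or Rpt3R also bind transcripts of related genes was not tested, since probe sequences were not used here, and the levels of these paralogs are uncertain to that extent.

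**Figure D4:**
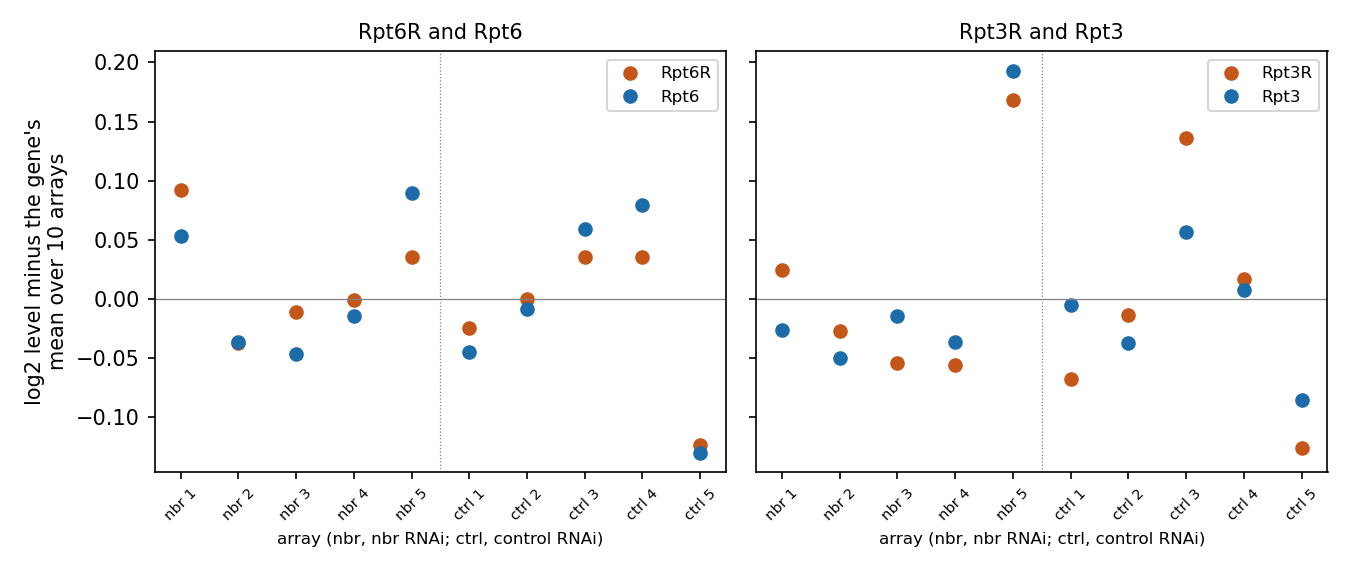
Log2 level minus the gene's mean over the 10 arrays (vertical axis) for Rpt6R and Rpt6 (left) and for Rpt3R and Rpt3 (right) on each nbr RNAi array and then each control RNAi array. Points are single arrays. On control RNAi array 5 all 4 genes are at their lowest, and on nbr RNAi array 5 Rpt3 and Rpt3R are at their highest.

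Some subunit genes lay outside the symbol rule because the deposited table names them otherwise. Of 7 such genes, 5 were tested, none passed, and all 5 had log2 fold changes below 0, with a median of -0.019. Over all tested probe sets 47.1% were below 0. Sem1, the smallest lid subunit, was at -0.023 (95% interval -0.100 to 0.053, limma adjusted p = 0.947), and Rpn13, a ubiquitin receptor, at -0.023 (-0.119 to 0.073, adjusted p = 0.960). Rpn8 was at -0.019, the ATPase gene Rpt5 at -0.018 and Prosbeta4 at -0.017. With these genes added, 3 of 13 core genes were above 0 with a median of -0.017, and 11 of 21 regulatory genes were above 0 and 9 below with a median of 0.00082. The paralogs Prosbeta5R2 and Rpn13R, with means of 2.03 and 2.08, were under the minimum. A probe set annotated to both CG30382 and Prosalpha1 was at -0.022 (interval -0.111 to 0.068, limma adjusted p = 0.960), and one annotated to both Or23a and Prosbeta4R2 had a mean of 2.20.

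Genes that build, regulate and supply the proteasome did not pass either. In 4 lists of such genes 30 were tested, 10 with a log2 fold change above 0 and 20 below, with a median of -0.017. Over all tested probe sets 52.9% were above 0 and 47.1% below 0, with a median of 0.0056. None of the 30 had an adjusted p under 0.05 in limma, against 0.0259% of all tested probe sets. Before adjustment 1 of the 30 had a p under 0.05, against 5.87% of all tested probe sets. That gene was Ubi-p5E, a polyubiquitin gene, which read 14.21, 14.21, 14.32, 14.21 and 14.16 in nbr RNAi, against 14.07, 14.12, 13.98, 14.08 and 14.23 in control RNAi. The nbr RNAi arrays lay above 4 of 5 control RNAi arrays, and only control RNAi array 5 fell among them. Ubi-p5E failed the test with a log2 fold change of 0.127 (interval 0.011 to 0.244, limma, Benjamini-Hochberg adjusted p = 0.849). In the same list of ubiquitin, activating and segregase genes, of which 14 of 15 were found, 6 were above 0, and Ufd1, a cofactor of the TER94 segregase, was at -0.084 (-0.198 to 0.030, adjusted p = 0.867).

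Of 7 deubiquitinase and shuttle factor genes 6 were found, 1 was above 0, and the median was -0.057. Over all tested probe sets 52.9% were above 0, with a median of 0.0056. Usp5, which in mammals takes apart free ubiquitin chains, was at -0.137 (interval -0.280 to 0.0057, limma adjusted p = 0.854), and Uch, a ubiquitin hydrolase, at -0.079 (-0.176 to 0.018, adjusted p = 0.866). Of 6 genes of transcriptional and stress control, 1 was above 0, namely cnc at 0.0032, the factor whose mammalian relatives induce proteasome genes. Its partner maf-S was at -0.055 (-0.181 to 0.072, limma adjusted p = 0.910), and Pngl, a glycanase whose relatives in worms and mammals act on such factors, at -0.040 (-0.130 to 0.051, adjusted p = 0.909). Of 8 assembly and activation genes listed, 4 were found under their symbols, and 2 of these were above 0. Pomp, a maturation factor of the core particle, was at 0.073 (-0.034 to 0.181, limma adjusted p = 0.876), and PI31, a proteasome regulator, at -0.042 (-0.212 to 0.129, adjusted p = 0.960).

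The headers of the comparison columns in the authors' deposited table name tmr against Renilla, while its array columns are named nbr. In the authors' deposited table the 39 genes had q-values of 36.6% to 38.5%. The lowest unadjusted p among them in the authors' deposited table was 0.0564, for Prosalpha4T2, and their signed fold changes there were -1.06 to 1.05. These fold changes matched those of nbr RNAi over control RNAi computed here. Prosalpha3 was 1.064-fold lower and Rpt2 1.054-fold higher by either source.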

How the data were processed

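RNA was isolated with TRIzol, its cDNA amplified with a NuGEN Ovation Pico kit, and the product biotin-labelled, as stated in the labels' protocols. The deposited array values are log2 levels per probe set, and the submitters' processing notes name GCRMA and Partek, without versions or order. The authors' deposited table also holds a signed fold change (treated as a score), a score of the comparison, an unadjusted p-value and a q-value in percent, per the file headers, and its array columns equal the value table in 189520 of 189520 cells. No genome build was named, so no coordinates are given, and no sequences were used.

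Of 18769 probe sets other than controls, 13773 carried 1 symbol, and names were updated by accession in a RefSeq gene table (assembly Release 6 plus ISO1 MT). The test covered the 7729 probe sets whose log2 mean over the 10 arrays was 4 or more, by limma 3.58.1 (lmFit, eBayes) under R 4.3.3, nbr RNAi minus control RNAi, without covariates, 2-sided, adjusted after Benjamini-Hochberg and called at 0.05. The fit was also run on simulated data with independent noise for each probe set. Shifts shared by genes on an array were not part of it, and nothing is concluded from it here. Tables and plots used Python 3.11.15, pandas 2.3.3, numpy 2.4.6 and matplotlib 3.10.9.

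The members, gene lists and marker lists were chosen with earlier results of these data known. Genes with values on every array are the 3 of smallest p in each ring, base and lid, the catalytic beta genes, the paralogs above the minimum, and, chosen after their values were seen, Rpn5, Prosalpha4T2, Prosbeta2R2 and Ubi-p5E. From each other list the 2 tested genes of smallest p are given, and further genes are named by their fold change only. Alternatives were other minimums, a second quantile normalization, centring on the median, weighting of arrays, a robust trend, an unmoderated test, the replicate number as a block, the mean of a gene's probe sets, and leaving out arrays. The limma p-values set each difference against the spread between these replicates, with the variance moderated over all probe sets in the fit. What separated the replicates is not stated.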

Additional observations from a re-analysis of the deposited data

Results flagged for a closer look

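Of 78 groups of 5 values (39 genes in each treatment), 8 held a value far from the other 4 by Dixon's test for an outlying value. Chance flags about 1 in 20 groups when the groups are independent. Here most genes were high or low together on some arrays, so the count of 8 cannot be judged against that rate. The share flagged over all probe sets is not given. On nbr RNAi array 5 there were 4 of the 8 flagged values. Prosalpha5 read 13.49 there, against 13.21 to 13.29 on the other nbr RNAi arrays, Rpt3 read 13.16 against 12.92 to 12.95, and Rpn9 read 13.69 against 13.58 to 13.61. Rpn5 went the other way, at 13.46 against 13.78 to 13.88. On control RNAi array 4, Rpn2 read 13.22, against 13.32 to 13.35 on the other control RNAi arrays. The remaining 3 were dim paralogs under the minimum for testing. Prosalpha4T1 read 2.21 on nbr RNAi array 3, against 2.19 on the others, Prosbeta2R1 read 1.87 on nbr RNAi array 1, against 1.87 on the others, a gap in the third decimal, and Prosbeta2R2 read 3.23 on control RNAi array 3, against 3.08 to 3.11.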

How the results depend on the processing

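Under all 20 alternatives no proteasome gene passed after adjustment (lowest limma Benjamini-Hochberg adjusted p = 0.481, Prosalpha3 without nbr RNAi array 5), and the 29 log2 fold changes stayed between -0.120 and 0.100. Among these 29 genes the count at an unadjusted p under 0.05 was 0 except without nbr RNAi array 5, where it was 1. Leaving out single arrays thus gave 0 to 1. The sign changed in at least 1 alternative for 14 of the 29 genes, all uncalled and near 0. Among the genes with full values, Prosbeta2 was at -0.0031 with quantile normalization and Prosbeta3 at 0.0017 with array weights, and Prosbeta5 ran from -0.040 to 0.011 and Rpt3R from -0.017 to 0.059 when each array was left out. Rpt3R turned below 0 in 3 alternatives, and Rpn5, at 0 with all arrays, ran from -0.030 to 0.076. Over the alternatives the core median was -0.044 to 0.0011 and the regulatory median -0.0068 to 0.029. The core median minus the regulatory median was -0.046 to -0.018. Over the whole array 2 probe sets were called. The count was 4 with median centring, 4 with array weights, 3 with a robust trend and 3 with the mean of a gene's probe sets. It was 1 with the replicate block, 1 without nbr RNAi array 5 and control RNAi array 3 together, and 1 to 3 when each array was left out. The count of all probe sets at an unadjusted p under 0.05 was 454, and 255 to 901 over the alternatives, and 69.3% of all probe sets were above 0 with no minimum, against 52.9% with it. Replicates with the same number did not deviate together (r from -0.465 to 0.184 over the 5 pairs), so the number was not taken as a pairing, and the replicate block changed no other call. The causes were not tested.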
